A study of Mus musculus with 12 samples.

Results

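The mRNA levels of 60 ribosome biogenesis factors were described in the tibia shaft of 12 male mice aged 8 weeks, with 4 mice in each of 3 groups. The 60 genes are among 47069 genes in the count table, and all 60 were found in it by symbol. They comprise 23 genes of the small subunit processome, 20 genes of large subunit assembly, 8 genes of small nucleolar ribonucleoproteins (snoRNPs), 4 genes of RNA polymerase I and 5 genes that act at several steps. The genes were chosen by their higher level in the Sost knockout group than in the Sost heterozygous group of Jrt mice, as members of a longer list whose direction in that comparison was already known. Values of that comparison are therefore given as a description without a test.

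Jrt;Sost-het mice (het mice in what follows) are labelled Col1a1Jrt/+, and their heterozygous Sost knockout genotype was taken from the study's methods. Jrt;Sost-ko mice (ko mice) are labelled Col1a1Jrt/+ Sost-/-. WT mice carried neither allele. The Jrt allele is a splice site variant of Col1a1 that serves as a dominant model of osteogenesis imperfecta, and Sost encodes sclerostin, an inhibitor of Wnt signalling that osteocytes secrete. Both Jrt groups thus share the Jrt allele and at least 1 Sost knockout allele, in every cell, and came from a single colony on a mixed FVB and C57BL6 background. The WT mice were bred in a parallel colony. In every comparison with WT, effects of colony and of genotype cannot be told apart. Marrow was flushed from the shafts before RNA was extracted, and each mouse gave 1 library.

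Sost itself had 27.2 to 70.3 CPM (counts scaled to the size of the library) in het mice, 0.328 to 1.28 CPM in ko mice and 28.6 to 72.4 CPM in WT mice. Each library held between 24366061 and 44418863 reads counted on genes, with the lowest totals in het mice (24366061 to 29431764) and higher ones in ko (28255411 to 37370099) and WT mice (28737276 to 44418863). Markers of osteoblasts, osteocytes, osteoclasts and chondrocytes were present in every group, as were markers of skeletal muscle, erythroid cells, neutrophils and B cells, and no marker was at 0 throughout a group. The summed level of 16 skeletal muscle genes was 2796 to 32820 CPM in het mice, 34.2 to 14170 CPM in ko mice and 260.0 to 34990 CPM in WT mice. Krt10, a keratin of the epidermis, had 48.8 and 208.0 CPM in WT mice 3 and 4 and 1.35 to 2.07 CPM in the other 10 mice. The number of the 60 factors above their WT level is given with and without these mice.

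Ribosomes are assembled in the nucleolus. RNA polymerase I transcribes a long precursor that holds the small subunit rRNA and most of the large subunit rRNA, snoRNPs guide its modification, and the small subunit processome and the large subunit assembly factors fold it, cut it and load it with ribosomal proteins before the subunits leave for the cytoplasm. In bone, cells that secrete much collagen and marrow precursors that divide both have a high demand for ribosomes. Many genes of this process carry the word CACGTG near their start, the E-box that Myc and Max bind, and several hold snoRNAs in their introns.

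The promoters of the factors were read from RefSeq on GRCm38.p6, from 250 bases before to 50 bases after the start. An entry was found for 51 of the 60 genes. The word CACGTG, which reads alike on both strands, was present in the promoters of 12 of the 51 genes (23.5%), against 11.2% of 11475 protein coding genes tested here and 8.09% of all 27025 genes with an entry. The word GGGCGG, on either strand, was present in 74.5% of the 51 genes and in 65.4% of tested genes. CCAAT was present in 37.3% and 42.4%, and TATAAA in 5.88% and 9.49%. AAGATGGC was found in 1.96% against 4.72%, and GCATGCGC in 1.96% against 5.39%. The median GC content of the promoters was 59.7%, close to that of tested genes. Such matches are descriptions of letters and not of bound sites. In 5 genes (Nol11, Nop2, Rrn3, Utp18 and Wdr46) CACGTG lay before the start. Nol11 and Utp18, 2 named genes on chromosome 11, are shown here with Nop2, the rRNA cytosine methyltransferase, and Rrn3, the factor that brings polymerase I to rRNA genes. Nop2 and Rrn3 were added after their values were seen. The sequences end at the base before the start and run 5′ to 3′ on the strand of the gene, with CACGTG in capitals.
Nol11: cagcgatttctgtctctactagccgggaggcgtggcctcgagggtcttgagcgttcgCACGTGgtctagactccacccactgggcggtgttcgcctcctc
Nop2: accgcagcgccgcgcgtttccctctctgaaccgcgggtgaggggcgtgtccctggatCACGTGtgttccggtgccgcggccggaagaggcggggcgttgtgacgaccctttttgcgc
Rrn3: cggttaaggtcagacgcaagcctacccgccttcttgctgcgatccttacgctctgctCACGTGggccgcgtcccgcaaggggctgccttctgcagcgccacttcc
Utp18: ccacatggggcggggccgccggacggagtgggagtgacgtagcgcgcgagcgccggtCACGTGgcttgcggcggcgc

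The stretches lie at chr11:107189382-107189481 (Nol11, minus strand), chr6:125131766-125131882 (Nop2, plus strand), chr16:13780594-13780698 (Rrn3, plus strand) and chr11:93885767-93885843 (Utp18, minus strand) on GRCm38. The first base of CACGTG lies 43 bases before the start in Nol11, 60 in Nop2 and 20 in Utp18. Rrn3 holds 2 copies, at 215 and at 48 bases, and only the nearer copy is within the stretch shown.

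Of the 60 genes, 7 (11.7%) hold annotated snoRNAs on their own strand, against 1.57% of 14735 protein coding genes tested. These are the C/D snoRNP core genes Nop56 (5 snoRNAs) and Nop58 (4), the H/ACA pseudouridine synthase gene Dkc1 (1), the processome genes Wdr43 (3) and Tsr1 (2), the nucleolar GTPase gene Gnl3 (3) and the nucleolin gene Ncl (3). Together they hold 21 snoRNAs, whose own levels were not analysed here.

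All 60 genes were well above the limit of detection. The lowest count of any of them in any mouse was 336. Mean levels ranged from 15.6 CPM for Grwd1, a histone and ribosomal protein chaperone gene, to 623.4 CPM for Ncl, with a median of 41.8 CPM. Per kilobase of transcript, levels ranged from 3.19 CPM for Wdr12 to 304.2 CPM for Npm1, the nucleophosmin gene, with a median of 15.1 CPM. Wdr12, with a mean of 31.95 CPM, has the longest annotated transcript of the 60 genes (10012 bases), so its low value per kilobase depends on the annotation. The spread between mice of a group was small, with a median SD of 0.11 on the log2 CPM scale against 0.20 for all genes tested. The genes tested were not matched to the 60 for level, so nothing is read from this difference.

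The level of the process in each mouse was taken as the mean log2 CPM of the 60 genes. In het mice 1 to 4 it was 5.47, 5.41, 5.59 and 5.53. In ko mice 1 to 4 it was 5.65, 5.69, 5.56 and 5.75. In WT mice 1 to 4 it was 5.55, 5.64, 5.58 and 5.47. All ko mice but mouse 3 thus lay above every mouse of the other groups, while ko mouse 3 lay below het mouse 3 and WT mice 2 and 3, so that the groups overlapped. The 60 genes together took 0.363% to 0.421% of the counts in het mice, 0.409% to 0.472% in ko mice and 0.367% to 0.445% in WT mice.

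**Figure D1:**
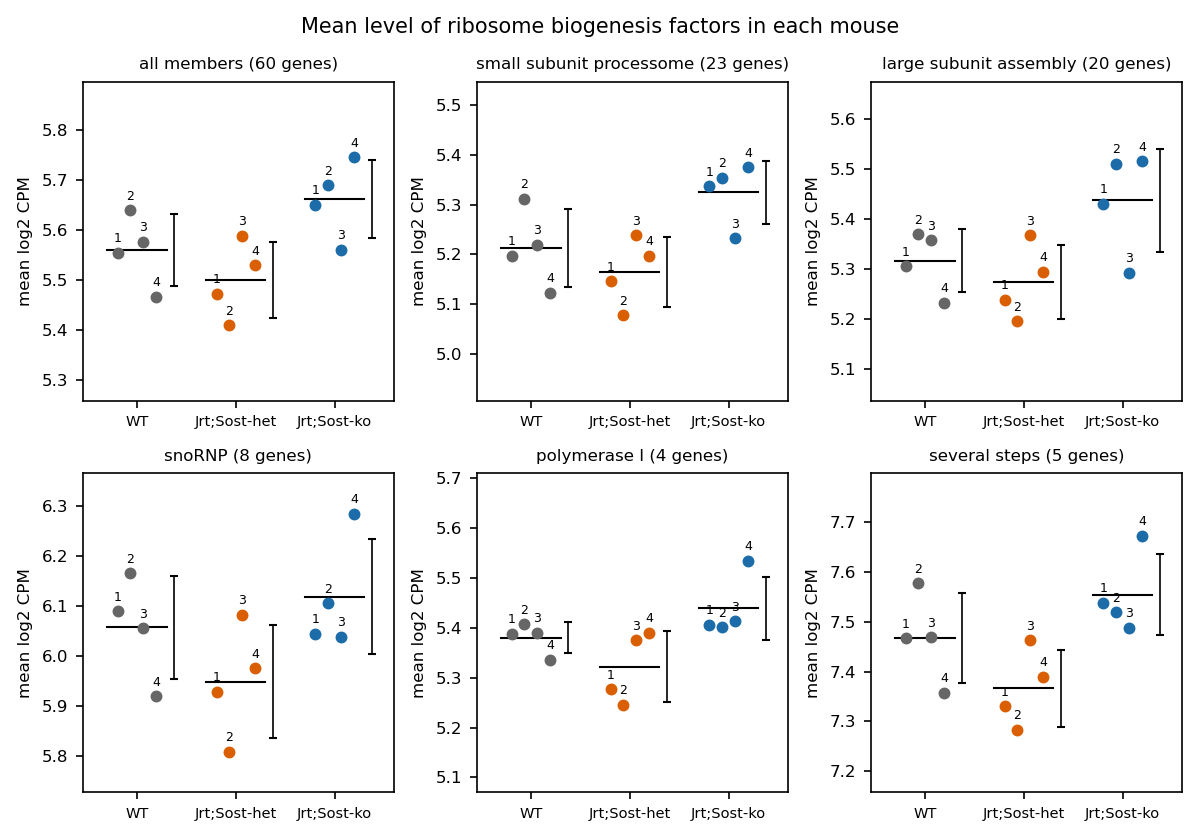
Mean log2 CPM of the 60 factors and of each step (vertical axis) in each mouse, by group (horizontal axis). Points are mice, numbered within their group, black lines are group means and bars beside them are the SD (n = 4). Ko mouse 3, at 5.56 over all 60 genes, lies within the range of the other groups, and the vertical axes start above 0.

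Few mice held most of the extreme values. Ko mouse 4 was the highest of the 12 mice for 34 of the 60 genes, ko mouse 2 for 16 and ko mouse 1 for 5, against 3 in WT mouse 2, 1 in WT mouse 1 and 1 in het mouse 4. Het mouse 2 was the lowest for 27 genes, het mouse 1 for 14 and WT mouse 4 for 11. Ko mouse 3 was the highest for none and the lowest for 2.

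**Figure D2:**
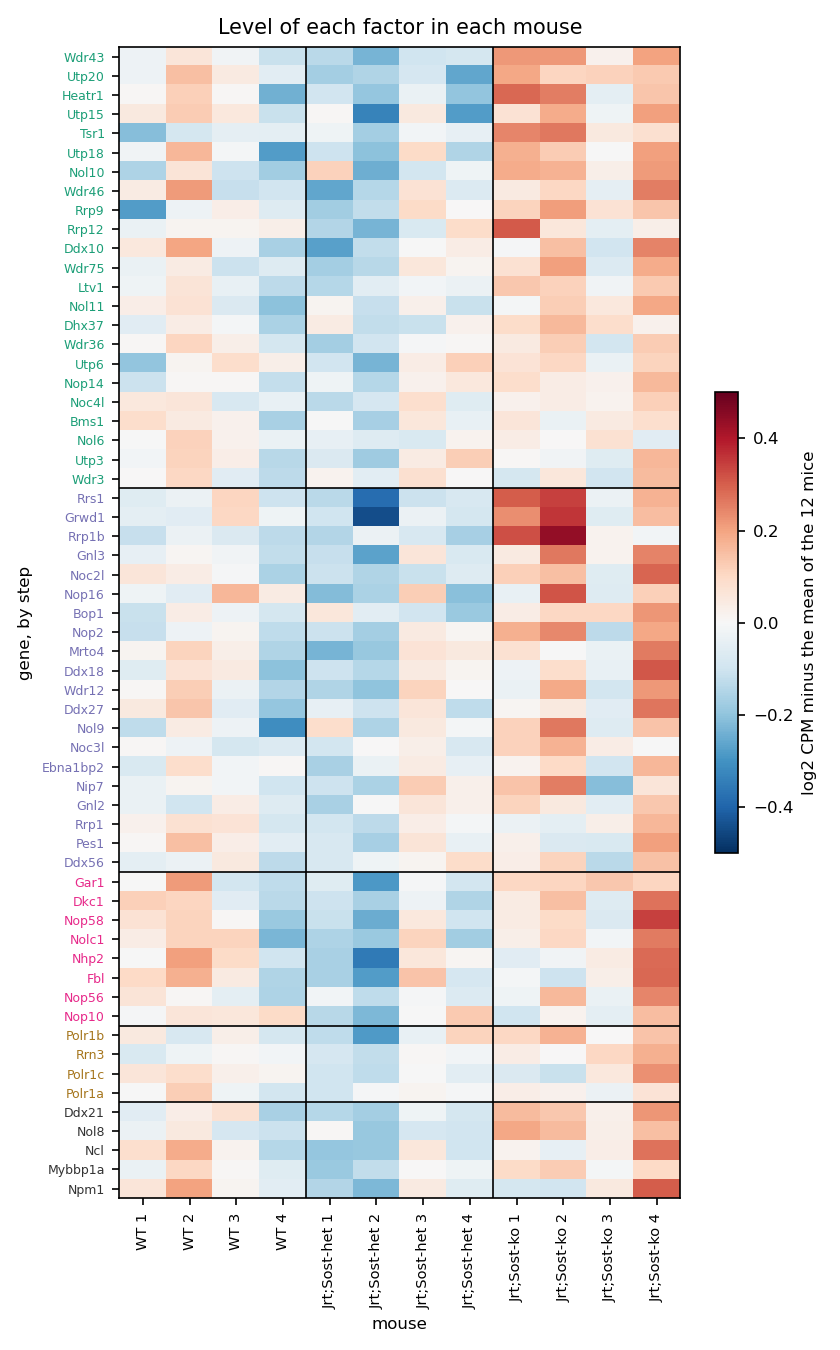
Level of each of the 60 factors (rows, grouped and coloured by step) in each of the 12 mice (columns), as log2 CPM minus the mean of the 12 mice. Red is above and blue below that mean. The columns of ko mouse 4 (highest for 34 genes) and het mouse 2 (lowest for 27) stand out.

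In ko against het mice, all 60 genes had a log2 fold change above 0 in the main fit, which used TMM scaling. The number was 59 when library size alone was used or when muscle, erythroid and neutrophil genes were left out of the scaling. It was also 59 with a filter of 10 counts in each mouse, in a joint fit of the 12 mice and with muscle genes as a covariate. Wdr3 was the exception in each of these. Of all 16739 genes tested, 50.4% were higher in ko mice. As this direction is what chose the genes, nothing is read from the count. The differences were small. The median log2 fold change was 0.16, against 0.00 for all genes tested, with a range from 0.00 to 0.38. By step the median was 0.16 for the small subunit processome, 0.14 for large subunit assembly, 0.19 for snoRNPs, 0.12 for polymerase I and 0.18 for the genes of several steps. In 9 genes (Wdr43, Utp20, Tsr1, Noc2l, Rrp1b, Rrs1, Gar1, Ddx21 and Nol8) every ko mouse was above every het mouse, as was the case for 1.64% of all genes tested.

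**Figure D3:**
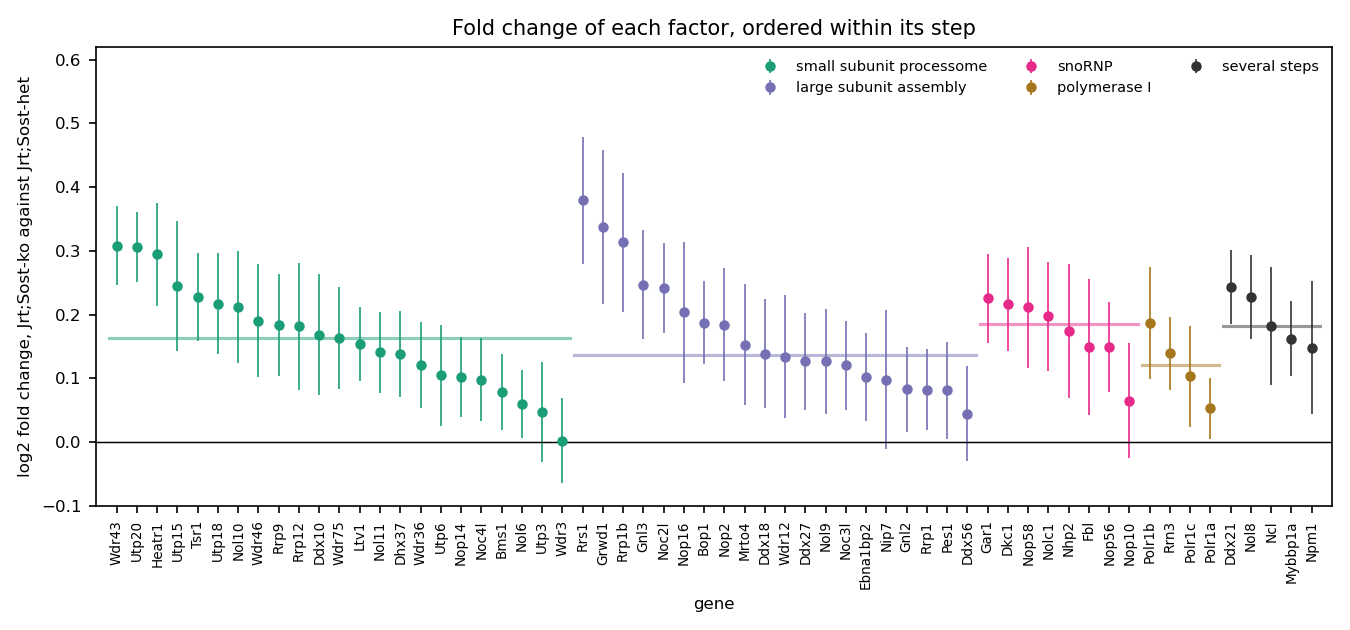
Log2 fold change of each factor in ko against het mice (vertical axis, n = 4 mice in each group), ordered within its step (horizontal axis). Bars are standard errors and horizontal lines the medians of the steps, from 0.12 for polymerase I to 0.19 for snoRNPs (0.07 and 0.11 without ko mouse 4). The genes were chosen by this comparison.

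Without ko mouse 4 the median was 0.12 with 58 of the 60 genes higher. The step medians were then 0.13 for the small subunit, 0.11 for the large subunit, 0.11 for snoRNPs, 0.07 for polymerase I and 0.15 for several steps, so that the order of the steps was not kept. Without both ko mouse 4 and het mouse 2 the median of the 60 genes was 0.09 with 56 higher, and Nop10, Pes1, Utp3 and Wdr3 were then lower. Ko mouse 4 also had the lowest summed level of skeletal muscle genes of the 12 mice, 34.2 CPM, and the highest of 24 genes of dividing cells, 8674 CPM. Het mouse 2 had 7222 CPM of the muscle genes and 7053 CPM of the genes of dividing cells. With the mean log2 CPM of the muscle genes as a covariate, the median log2 fold change of the 60 genes was 0.13 and 59 were higher. In bulk RNA, fewer cells of a type and less RNA per cell cannot be told apart.

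**Figure D4:**
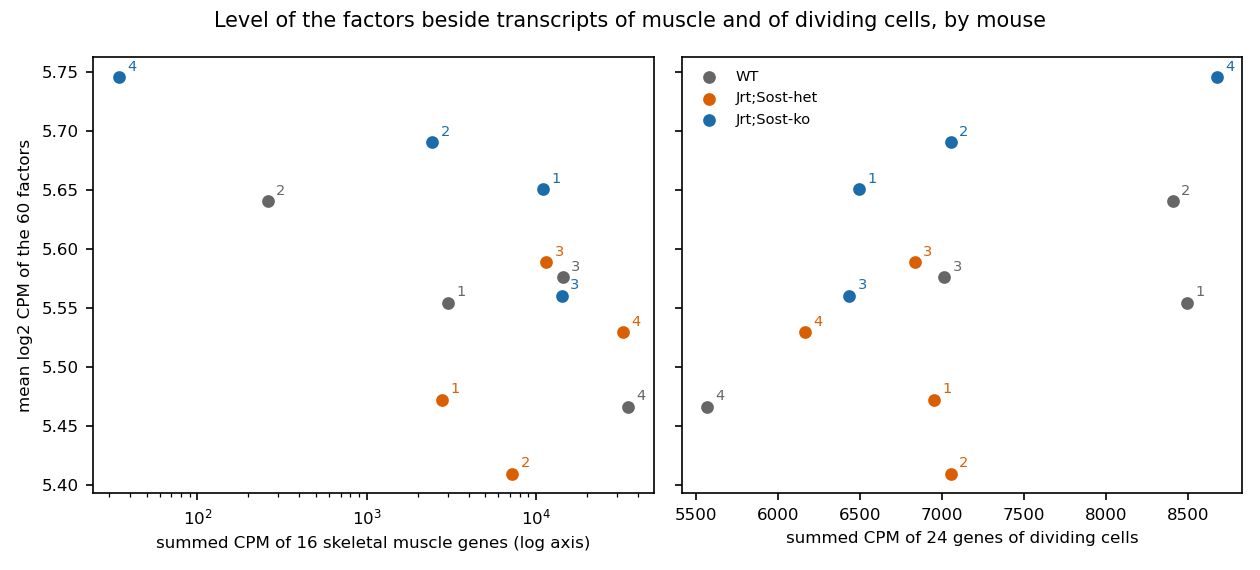
Mean log2 CPM of the 60 factors (vertical axis) against the summed CPM of 16 skeletal muscle genes (left, log axis) and of 24 genes of dividing cells (right), in each mouse. Points are mice, numbered within their group. Ko mouse 4 has the lowest muscle sum (34.2 CPM), the highest sum for dividing cells (8674 CPM) and the highest level of the factors (5.75).

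The small subunit processome packages the nascent precursor and releases the small subunit rRNA. Its genes had a summed level of 831.8 to 930.9 CPM in het mice, 925.9 to 1020 CPM in ko mice and 857.2 to 978.6 CPM in WT mice. The log2 fold change was largest for Wdr43, which belongs to the subcomplex that is loaded while the precursor is transcribed (ENSMUSG00000041057, chromosome 17 from 71615895 to 71659031). Wdr43 had 55.8, 52.1, 57.3 and 57.6 CPM in het mice, 71.3, 71.4, 62.2 and 70.4 CPM in ko mice and 60.2, 64.0, 60.5 and 56.8 CPM in WT mice. Every ko mouse was above every het mouse, by a log2 fold change of 0.31 (standard error 0.062), while WT mouse 2 lay above ko mouse 3. Utp20, a very large scaffold protein of the same particle (ENSMUSG00000004356, chromosome 10 from 88746607 to 88826804), had 37.5, 38.1, 39.9 and 35.3 CPM in het mice, 48.4, 45.6, 45.8 and 46.2 CPM in ko mice and 41.5, 46.9, 43.6 and 40.7 CPM in WT mice. The het mice were below all 8 other mice. The log2 fold change between the Jrt groups was 0.31 (standard error 0.055).

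Tsr1, a factor of the late small subunit precursor (ENSMUSG00000038335, chromosome 11 from 74898071 to 74909342), had 48.5, 43.8, 48.7 and 47.8 CPM in het mice, 58.4, 59.1, 50.9 and 52.0 CPM in ko mice and 42.5, 46.4, 47.7 and 47.6 CPM in WT mice. All ko mice were above all 8 other mice, with a log2 fold change of 0.23 (standard error 0.069) against het mice. Bms1, a GTPase and the most abundant gene of this step by CPM, had 81.2 to 94.8 CPM in het mice, 89.1 to 96.7 CPM in ko mice and 81.4 to 97.0 CPM in WT mice. Its groups overlapped, and its log2 fold change was 0.08 (standard error 0.059), or 0.04 without het mouse 2. Rrp9, a protein of the U3 snoRNP and the least abundant, had 16 to 19.3 CPM in het mice, 18.9 to 20.9 CPM in ko mice and 14.8 to 18.4 CPM in WT mice. Wdr3, a subunit of the UTP-B complex, had the smallest difference, with 47.2 to 51.7 CPM in het mice, 45.8 to 54.6 CPM in ko mice and a log2 fold change of 0.00 (standard error 0.066) that was below 0 under several alternatives. Nol10 had 17.3 to 22.3 CPM in het mice and 21.0 to 23.8 CPM in ko mice.

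Of the 60 genes, 9 lie on chromosome 11, which also holds Col1a1 (94936224 to 94953042) and Sost (101962458 to 101967015). Utp18, another UTP-B subunit (ENSMUSG00000054079), lies 1.05 Mb from Col1a1 and 8.08 Mb from Sost, and Nol11, a partner of the transcription-coupled subcomplex (ENSMUSG00000018433), lies 5.2 Mb from Sost. Linked FVB or C57BL6 alleles and the Sost genotype cannot be told apart for these genes. Utp18 had 31.1, 29.0, 35.7 and 30.1 CPM in het mice, 37.8, 36.5, 33.3 and 38.5 CPM in ko mice and 33.0, 37.5, 33.1 and 27.6 CPM in WT mice. Nol11 had 35.5, 32.5, 35.8 and 32.6 CPM, 34.9, 38.3, 36.5 and 40.2 CPM, and 36.0, 37.0, 33.5 and 30.5 CPM, in the same order of groups. Their log2 fold changes between the Jrt groups were 0.22 (standard error 0.079) and 0.14 (standard error 0.064), and the groups overlapped in both.

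Large subunit assembly factors had a summed level of 863.0 to 963.8 CPM in het mice, 923.8 to 1088 CPM in ko mice and 878.4 to 981.6 CPM in WT mice. Rrs1, which helps to bring the 5S ribonucleoprotein into the large subunit (ENSMUSG00000061024, chromosome 1 from 9545408 to 9547455), had the largest fold change of the 60 genes. It had 31.1, 26.2, 31.7 and 32.2 CPM in het mice, 42.1, 43.2, 33.4 and 38.5 CPM in ko mice and 32.7, 33.4, 36.8 and 31.8 CPM in WT mice. Ko mouse 3 was close to the het mice and below WT mouse 3, and the log2 fold change was 0.38 (standard error 0.099). Rrp1b and Rrp1 encode related nucleolar proteins. Rrp1b had 23.2, 25.1, 24.3 and 22.9 CPM in het mice, 32.1, 34.8, 26.03 and 25.5 CPM in ko mice and 23.7, 25.2, 24.4 and 23.4 CPM in WT mice, so that ko mice 1 and 2 stood well above the other 10 mice (log2 fold change 0.31, standard error 0.11). Rrp1, the most abundant gene of this step by CPM, had 131.8 to 147.7 CPM in het mice, 139.4 to 162.0 CPM in ko mice and 135.9 to 152.3 CPM in WT mice, with a log2 fold change of 0.08 (standard error 0.064) that was 0.03 without ko mouse 4.

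Grwd1 had 14.4, 11.4, 15.2 and 14.6 CPM in het mice, 18.2, 19.8, 14.8 and 17.2 CPM in ko mice and 14.9, 14.9, 16.6 and 15.2 CPM in WT mice. Het mouse 2 was the lowest of all mice. The log2 fold change of 0.34 (standard error 0.12) was 0.25 without it. Nol9 encodes a polynucleotide kinase that acts on the spacer between the large subunit rRNAs. It had 33.7 to 39.9 CPM in het mice, 35.9 to 45.1 CPM in ko mice and 30.2 to 38.6 CPM in WT mice. Ddx56, a DEAD-box RNA helicase, had the smallest fold change of this step, 0.04 (standard error 0.075, and 0.0040 to 0.10 when a mouse was left out, ko mouse 4 or ko mouse 3 respectively), with 27.3 to 30.7 CPM in het mice and 26.3 to 31.9 CPM in ko mice.

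The snoRNP proteins form the C/D particles that methylate rRNA (Nop56, Nop58 and the methyltransferase Fbl) and the H/ACA particles that convert uridine to pseudouridine (Dkc1, Gar1, Nhp2 and Nop10), with Nolc1 as a chaperone. Their summed level was 507.4 to 607.4 CPM in het mice, 580.9 to 706.5 CPM in ko mice and 531.5 to 634.2 CPM in WT mice. Gar1 (ENSMUSG00000028010, chromosome 3 from 129824912 to 129831396) had 27.5, 23.5, 28.6 and 27.0 CPM in het mice, 30.9, 30.9, 31.6 and 31.0 CPM in ko mice and 28.7, 33.2, 27.0 and 26.3 CPM in WT mice. The ko mice were almost equal to each other and above every het mouse, but below WT mouse 2 (log2 fold change 0.23 against het, standard error 0.07). Nop56, the most abundant gene of this step by CPM, had 112.4 to 122.3 CPM in het mice, 120.1 to 145.5 CPM in ko mice and 110.5 to 128.5 CPM in WT mice, a log2 fold change of 0.15 (standard error 0.071) that was 0.09 without ko mouse 4 and 0.08 with the muscle covariate. Nop10 had 28.7 to 36.8 CPM, 31.4 to 37.4 CPM and 33.4 to 35.8 CPM in these groups, and its log2 fold change was 0.07 (standard error 0.09). The Jrt groups overlapped in part. Without ko mouse 4 the log2 fold change was 0.01, and without het mouse 4 it was 0.13.

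Of polymerase I, Polr1a and Polr1b encode the 2 largest subunits, Polr1c a subunit shared with polymerase III and Rrn3 the initiation factor. Their summed level was 161.4 to 173.9 CPM in het mice, 175.6 to 191.7 CPM in ko mice and 167.8 to 179.3 CPM in WT mice. The sum of this step did not overlap between the Jrt groups, although no single gene of the 4 was free of overlap. In mean log2 CPM the genes of several steps did not overlap either, with up to 7.46 in het mice and at least 7.49 in ko mice. The genes were chosen by this comparison, and no share for other sets of genes was computed, so nothing is read from this. Polr1b had 27.0, 24.3, 28.7 and 31.9 CPM in het mice, 31.7, 33.3, 29.6 and 32.6 CPM in ko mice and 30.6, 27.9, 30.1 and 27.8 CPM in WT mice, a log2 fold change of 0.19 (standard error 0.088) between the Jrt groups, or 0.12 without het mouse 2. Polr1a differed little, with 60 to 64.9 CPM, 63.1 to 67.6 CPM and 60.4 to 70.1 CPM in these groups, and its log2 fold change was 0.05 (standard error 0.048), or 0.02 without het mouse 1 and 0.03 without ko mouse 4.

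The genes of several steps include the most abundant of the 60. Their summed level was 1249 to 1463 CPM in het mice, 1407 to 1710 CPM in ko mice and 1327 to 1601 CPM in WT mice. Ncl encodes nucleolin, which binds the rRNA precursor and rDNA chromatin (ENSMUSG00000026234, chromosome 1 from 86344719 to 86359400). It had 542.5, 544.6, 644.7 and 579.5 CPM in het mice, 627.8, 602.6, 635.4 and 750.0 CPM in ko mice and 657.7, 706.1, 628.5 and 561.9 CPM in WT mice. Its Jrt groups overlapped and 3 WT mice were above 3 of the 4 het mice (log2 fold change 0.18 between the Jrt groups, standard error 0.093, and 0.11 without ko mouse 4). Npm1 had 422.9 to 509.6 CPM in het mice, 462.1 to 610.3 CPM in ko mice and 476.4 to 568.3 CPM in WT mice. Its log2 fold change of 0.15 (standard error 0.10) was 0.05 without ko mouse 4. Npm1 has near copies elsewhere in the genome, and how reads shared with such copies were counted is not given in the sources used here.

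Ddx21, an RNA helicase that acts on rDNA transcription and on snoRNP release (ENSMUSG00000020075, chromosome 10 from 62580251 to 62602281), had 136.1, 133.5, 148.0 and 141.3 CPM in het mice, 167.4, 165.0, 152.7 and 174.9 CPM in ko mice and 144.3, 153.6, 158.2 and 134.1 CPM in WT mice. Every ko mouse was above every het mouse, and the log2 fold change was 0.24 (standard error 0.058). Nol8, the least abundant of these 5 genes, had 24.1 to 27.6 CPM in het mice, 28.1 to 31.4 CPM in ko mice and 25.5 to 28.4 CPM in WT mice, and its log2 fold change was 0.23 (standard error 0.066). The strand setting of the counting is not given, and 21 of the 60 genes, Wdr43, Tsr1, Rrp1b and Grwd1 among them, overlap exons of a gene on the other strand.

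The mean of both Jrt groups was tested against WT, a contrast that the choice of genes did not use. It averages the het and ko genotypes of Sost. Every Jrt mouse also carries a Sost knockout allele and comes from another colony than the WT mice. The contrast therefore cannot test the Jrt allele by itself. None of the 60 genes had an adjusted p under 0.05 in edgeR or in DESeq2, as against 0.0058% of 17245 genes tested. An unadjusted p under 0.05 was found for 1 of the 60 genes in edgeR (3.21% of all genes tested) and for 1 in DESeq2. The direction was mixed, with 38 of 60 genes higher in Jrt mice against 48.8% of all genes, a median log2 fold change of 0.02 and a range from -0.08 to 0.16. Without WT mice 3 and 4 only 25 genes were higher and the median was -0.03. Leaving out 1 mouse gave medians from -0.0030 (WT mouse 4) to 0.04 (WT mouse 2). By step, 16 of 23 small subunit genes, 16 of 20 large subunit genes, 2 of 8 snoRNP genes, 2 of 4 polymerase I genes and 2 of 5 genes of several steps were higher in Jrt mice.

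The smallest p belonged to Tsr1, with a log2 fold change of 0.15 (95% confidence interval 0.02 to 0.27, adjusted p = 0.999 from edgeR). Over the alternatives its log2 fold change lay between 0.11 and 0.20 and its adjusted p between 0.238 and 1. Next came Nol9 with 0.16 (-0.02 to 0.33), Nol10 with 0.14 (-0.03 to 0.30), Rrp9 with 0.12 (-0.04 to 0.29) and Rrp1b with 0.14 (-0.05 to 0.32), none of which passed the threshold. Without WT mouse 4 the value for Nol9 was 0.10, and without WT mouse 1 that for Rrp9 was 0.06. Without WT mice 3 and 4 together Nol9 was at 0.10, Nol10 at 0.09 and Rrp9 at 0.19. For the most abundant genes the intervals were -0.24 to 0.13 for Ncl and -0.27 to 0.11 for Npm1. Over all 60 genes the 95% intervals reached no lower than -0.27 and no higher than 0.33.

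Each Jrt group was also set against WT mice by itself. These comparisons share mice with the one that chose the genes and with each other, so their values stand side by side and support nothing further. In het mice 12 of the 60 genes were higher than in WT mice (51.3% of all 16775 genes were), with a median log2 fold change of -0.06. Leaving out a mouse gave 6 genes (WT mouse 4), 7 (het mouse 3), 19 (het mouse 2) or 23 (WT mouse 2), and leaving out WT mice 3 and 4 together gave 9. The median was -0.09 without WT mouse 4, -0.09 without het mouse 3, -0.04 without het mouse 2, -0.03 without WT mouse 2 and -0.09 without WT mice 3 and 4. None of the 8 snoRNP genes, 4 polymerase I genes or 5 genes of several steps was higher, against 6 of 23 small subunit and 6 of 20 large subunit genes. No gene of the 60 had an adjusted p under 0.05 in edgeR (0% of all genes) or in DESeq2, and 1 in edgeR and 2 in DESeq2 had an unadjusted p under 0.05 (2.14% of all genes in edgeR). Utp20 and Polr1c were lower in every het than in every WT mouse, as were 0.703% of all genes.

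In ko mice 55 of the 60 genes were higher than in WT mice (49.1% of all 17155 genes were), with a median log2 fold change of 0.11. Without WT mice 3 and 4 the values were 41 genes and 0.06. The exceptions among the 60 were Nol6, Pes1, Nop10, Polr1c and Npm1, with log2 fold changes between -0.04 and -0.01. No gene of the 60 had an adjusted p under 0.05 in edgeR (0.00583% of all genes) or in DESeq2, and 12 in edgeR and 11 in DESeq2 had an unadjusted p under 0.05 (3.89% of all genes in edgeR). In Nop14, Rrp9, Tsr1, Rrp1b and Gnl3 every ko mouse was above every WT mouse, as for 1.31% of all genes. The order of group means was ko, then WT, then het in 43 of the 60 genes, and WT was lowest in 12. As the genes were chosen for ko above het, part of this order was fixed by the choice and nothing is read from it.

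**Figure D5:**
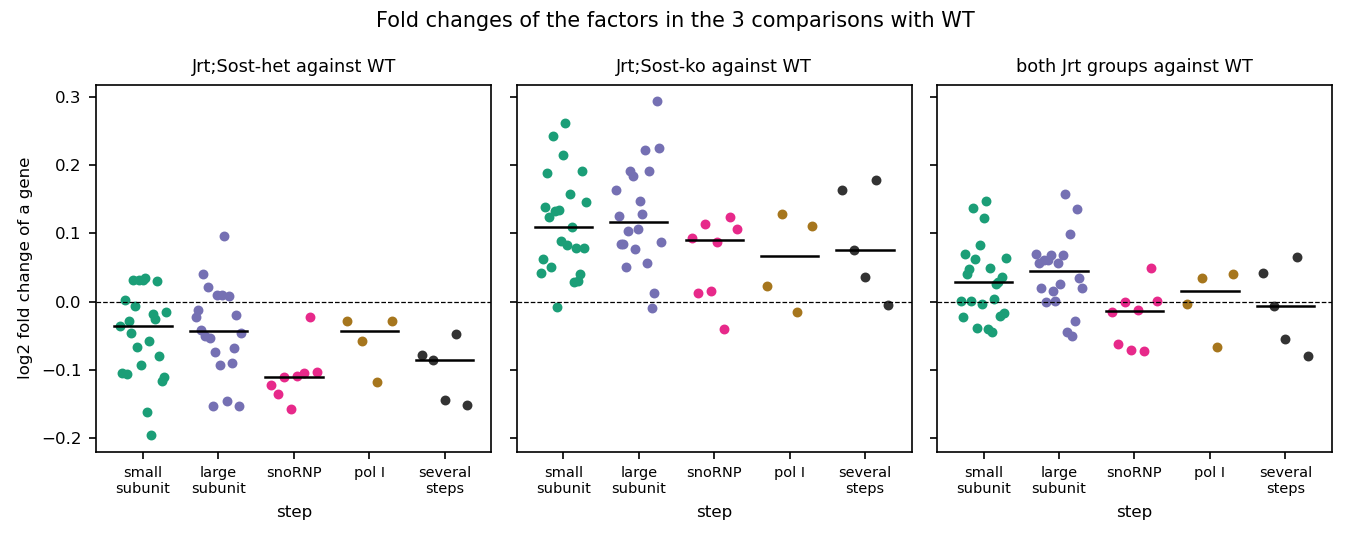
Log2 fold change of each factor (points, by step) in het against WT, ko against WT and both Jrt groups against WT (4 mice in each group). Black lines are medians of the steps. The 3 panels share the WT mice. The medians of all 60 genes are -0.06, 0.11 and 0.02.

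The wider process was described with a list of 120 other factors, none of which belongs to the 60. In ko against het mice 106 of the 120 were higher, with a median log2 fold change of 0.09, while 50.4% of all genes tested were higher. This list was also chosen with earlier results of these data known and was measured in the same mice. Its values are therefore a description and no independent check of the 60 genes. Against WT, 62 of 120 were higher in the mean of both Jrt groups, with 28 of 120 higher in het mice alone and 94 of 120 in ko mice alone. Without ko mouse 4 the values between the Jrt groups were 86 of 120 and 0.05, and without both ko mouse 4 and het mouse 2 they were 83 and 0.04. With the muscle covariate they were 93 and 0.06. The number above WT was 43 without WT mice 3 and 4. By step, with all mice, 30 of 33 other small subunit factors, 36 of 39 other large subunit factors, 10 of 11 other snoRNP factors, 12 of 16 other polymerase I factors and 18 of 21 factors of the nuclear exosome and of precursor cleavage were higher in ko mice. Without ko mouse 4 these counts were 26 of 33 (median 0.07, from 0.11), 31 of 39 (0.08, from 0.12), 9 of 11 (0.05, from 0.09), 9 of 16 (0.02, from 0.07) and 11 of 21 (0.0061, from 0.06), which left the last list nearly evenly split. With the muscle covariate they were 27 of 33 (0.07), 32 of 39 (0.08), 9 of 11 (0.06), 10 of 16 (0.03) and 15 of 21 (0.02). The fold change was largest for Mdn1, a giant ATPase of large subunit assembly (0.28, standard error 0.099), and Rpp38, an RNase P and MRP subunit (0.25, standard error 0.15). It was smallest for Polr2k, a subunit shared by the polymerases (-0.10, standard error 0.13), and Taf1c, a polymerase I promoter factor (-0.09, standard error 0.073).

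Related gene lists were described in the same way, and several of them rested on single mice. Of 79 cytosolic ribosomal protein genes, 66 were higher in ko than in het mice (median log2 fold change 0.04), but 7 of 79 were without ko mouse 4 (median -0.05) and 14 of 79 with the muscle covariate (median -0.03). In the mean of both Jrt groups 77 of 79 were lower than in WT, with a median of -0.11 (-0.16 without WT mice 3 and 4) and no adjusted p under 0.05 in edgeR. All 20 cytosolic tRNA synthetase genes were higher in ko than in het mice, with a median of 0.13, and 17 of 20 were without ko mouse 4 (median 0.10).

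Of the 24 genes of dividing cells, 23 were higher in ko than in het mice (median 0.09). This direction rested on ko mouse 4, without which 5 of 24 were higher (median -0.03), and 3 of 24 were with the muscle covariate (median -0.04). In the mean of both Jrt groups none of the 24 was higher than in WT (median -0.09). The number was 6 of 24 without WT mouse 1 (median -0.02) and 9 of 24 without WT mouse 2 (median -0.01). The median was -0.19 without WT mouse 4, -0.15 without ko mouse 4 and -0.27 without WT mice 3 and 4.

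Of 14 osteoblast genes 12 were higher in ko than in het mice (median 0.22, or 0.12 without ko mouse 2). All 14 were higher than in WT in the mean of both Jrt groups (median 0.29, or 0.17 with 12 of 14 higher without WT mouse 2 and 0.55 without WT mouse 4). All 14 were also higher in het mice alone (median 0.20), where 12 of the 60 factors were higher. The summed level of this list was 41880 to 66480 CPM in het, 50250 to 80600 CPM in ko and 27440 to 68910 CPM in WT mice. Of 10 osteocyte genes 6 were higher in ko than in het mice (median 0.225, or 0.07 without ko mouse 2). All 9 erythroid genes were higher in ko than in het mice (median 0.10), against 7 of 9 without ko mouse 4 (median 0.01) and 4 of 9 without het mouse 4 (median -0.01). With the muscle covariate 1 of the 9 was higher (median -0.06). In ko against het mice the muscle and cartilage lists went down. All 16 skeletal muscle genes were lower (median -0.99), against 11 of 16 without het mouse 4 (median -0.06). Of 10 chondrocyte genes 9 were lower (median -1.72, or -0.22 without het mouse 1). Het mouse 1 held 5238 CPM of these genes and the other het mice 1130 to 1795 CPM, while ko mice 2 to 4 held 1324 to 1652 CPM and ko mouse 1 lay between het mouse 1 and the rest. In the mean of both Jrt groups, all 8 adipocyte genes (median 0.48) and 9 of 10 B cell genes (0.09) were higher than in WT. All 16 skeletal muscle genes (-0.41), all 11 neutrophil genes (-0.15) and 11 of 12 osteoclast genes (-0.10) were lower. So were 8 of 9 erythroid (-0.10) and 8 of 10 chondrocyte genes (-0.45). Without het mouse 1 the muscle median was -0.23 and the chondrocyte median -1.24, and without het mouse 4 the muscle median was -0.92. The part of these lists in the levels of the 60 factors was not tested, beyond the fit with the muscle genes.

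Myc, which encodes the transcription factor that binds CACGTG with Max, had 43.8, 39.2, 42.6 and 38.8 CPM in het mice, 63.8, 67.1, 42.5 and 50.4 CPM in ko mice and 45.1, 43.7, 46.8 and 41.4 CPM in WT mice. All ko mice but mouse 3 were above all 8 other mice, and ko mouse 3 was within their range (log2 fold change 0.45 against het, standard error 0.14). Myc was not among the genes that the rule for named genes selected, and its value was at the top of its list. Of the 10 genes of the Myc family list 6 were higher in ko than in het mice, against 50.4% of all genes tested. The median log2 fold change of the list was 0.03, with a range from -0.11 to 0.45. Against WT, 4 of the 10 were higher in ko mice. Whether Myc has a part in the levels of the 60 factors was not tested.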

How the data were processed

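RNA of tibia shafts was sequenced in 12 mice. The labels state poly(A) enrichment and name both a SMARTER mRNA-Seq kit and NEBNext kits for the libraries, and which steps used which kit is not settled here. The authors aligned reads to GRCm38 with STAR and deposited a table of whole-number counts for 47069 genes, without normalization. The counting tool, its strand setting and the annotation release are not given in the sources used here. The deposited comparison tables, which hold the authors' fold changes and p-values with normalized counts, and the files of single mice were not used.

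The members and lists were chosen with earlier results of these data known. Counts were analysed in R 4.3.3 with edgeR 4.0.16 (filterByExpr, TMM, glmQLFit, glmQLFTest), with Benjamini-Hochberg adjustment over all genes tested and a threshold of 0.05. Both Jrt groups against WT used all 12 mice, and each other comparison its own 8. Confidence intervals are the log2 fold change plus or minus the quantile of the quasi-likelihood fit times the standard error, which is the log2 fold change divided by the root of the F statistic. Log2 CPM used a prior count of 2, and levels per kilobase the longest principal transcript. Depth ran from 24366061 to 44418863 counted reads. Jrt;Sost-ko mice were bred for comparison with littermates, but the litter of each sequenced mouse is not given in the sources used here. Gene positions and snoRNAs come from GENCODE M21 (46488 of 47069 identifiers found). The functions were tested on simulated data.

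Named genes were, in each step, those with the highest and lowest mean CPM and the largest and smallest fold change between the Jrt groups, the 5 smallest p-values in both Jrt groups against WT, any gene with an adjusted p under 0.05, any gene lower in Jrt;Sost-ko, Utp20 and genes within 10 Mb of Sost or Col1a1, and of the other factors those called and the 2 largest and 2 smallest fold changes. Alternatives were DESeq2 size factors in edgeR, library size alone, DESeq2 1.42.0, a fit of all genes without a filter, a filter of 10 counts in each mouse, a joint fit of the 12 mice, scaling without muscle, erythroid and neutrophil genes, scaling without ribosome biogenesis genes, muscle genes as a covariate, and leaving out each mouse in turn. Leaving out pairs of mice, and running the alternatives on the lists of other genes, were added after the data were seen.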

Additional observations from a re-analysis of the deposited data

Results flagged for a closer look

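In groups of 4 mice, the gap of the highest or lowest mouse to its nearest neighbour was divided by the range of the group and compared with Dixon's 95% critical value for groups of that size, for the mean level of each step and for each named gene. Of 90 groups, 5 were past it, where chance gives about 1 in 20, or 4.5. The mean level of the 4 polymerase I genes in ko mice gave a gap of 0.913, mouse 4 being highest at 5.53 log2 CPM against 5.40 to 5.41 in the other mice. The Wdr43 values of ko mice were set apart by mouse 3, lowest by a gap of 0.904, at 62.2 CPM against 70.4 to 71.4. The Gar1 values of ko mice were set apart by mouse 3, highest by a gap of 0.861, although the values only ran from 30.9 to 31.6 CPM. In het mice, Tsr1 and Grwd1 were lowest in mouse 2, each by a gap of 0.83. No cause was tested.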

How the results depend on the processing

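All 60 genes were tested under every alternative. Of 834 values under an alternative, 829 were labelled as unchanged. For named genes tested against WT this meant the same direction and side of the threshold. For other fold changes it meant a move smaller than the spread between mice. Counts of genes had to stay at 0 or within a fixed ratio of the main value. A change of sign near 0 could thus pass as unchanged. Examples were Wdr3 in ko against het mice (0.00, down to -0.07) and the median of both Jrt groups against WT (0.02, down to -0.03). In ko against het mice, 58 to 60 genes were higher when 1 mouse was left out (median log2 fold change 0.12 to 0.19), and 56 to 60 under the other alternatives (0.09 to 0.16). In both Jrt groups against WT, the number higher was 29 to 47 when 1 mouse was left out and 25 without WT mice 3 and 4 together. In het against WT mice it was 6 to 23 when 1 mouse was left out. In ko against WT mice it was 47 to 58 when 1 mouse was left out and 41 to 55 under the other alternatives. No member was called in any comparison with WT under any alternative. The cause of these shifts was not tested. No scaling moved the median of all genes by more than 0.02. No paired analysis was possible because the labels give animal identifiers and no replicate number that is shared between groups. The lowest count of a member in a mouse was 336, and counting error was not separated from the spread between mice.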
